A study of Mus musculus with 8 samples.

Results

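Protein phosphatase 1 (PP1) is described here at the level of its messenger RNA, through 10 mouse genes chosen by name: the 3 catalytic subunit genes Ppp1ca, Ppp1cb and Ppp1cc and the 7 regulatory subunit genes Ppp1r12a, Ppp1r15a, Ppp1r15b, Ppp1r10, Ppp1r2, Ppp1r7 and Ppp1r8. They are 10 of the 37980 gene rows of the series, and all 10 passed the filter on low values. The list was drawn up with the difference in Ppp1cb between the groups already known, so the fold changes of these genes are given as a description and are not tested.

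RNA was sequenced from multipotent progenitors (MPPs) of mouse bone marrow, with 4 libraries from NA mice and 4 from wild-type (WT) mice, each made from 1000 sorted cells. All mice were of the C57BL/6 strain, and the sorted cells were lineage-negative, c-kit and Sca1 positive, CD135 positive, and negative for CD48 and CD150. NA mice carry a NUP98-HOXA10hd fusion gene at Rosa26 behind a stop cassette that Vav-Cre removes in blood cells, so the fusion was present in the whole blood system and not only in MPPs. The paper calls the WT mice of its cell cycle assay age-matched. Its C57BL/6 mice were of the CD45.2 and the CD45.1 type, and the NA line was made in CD45.2 cells. In its transplants, donor cells were traced as Tdtomato or CD45.1 positive. For the WT donors of these libraries it states neither age matching nor CD45 type, so whether the groups differed in that type is not known. Neither ages in weeks nor a Cre allele in the WT mice were given in the sources used here. The libraries are called NA1 to NA4 and WT1 to WT4. The labels do not say that each library came from its own mouse, so p-values measure the spread between these libraries, which may be technical. In bulk RNA of this kind, fewer cells of a type and less RNA per cell cannot be told apart.

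PP1 removes phosphate from serine and threonine residues of a very large number of proteins. Its catalytic subunits are very similar to each other as proteins and have little choice of target on their own. The regulatory subunits, which dock to the catalytic subunit through short motifs, bring it to myosin, chromatin, the translation initiation factor eIF2 or glycogen, or hold it inactive. The beta subunit, encoded by Ppp1cb, is the form found in myosin phosphatase. It can also take part, though not as the only possible form of PP1, in the complex with SHOC2 and MRAS that acts on RAF kinases.

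The estimated depth was 3878358 to 4915060 reads per library, in 3 libraries of lower depth (NA4, WT2 and WT3) and 5 of higher depth. Values are normalised counts. The fourth library of each group lay closer to the mean of the other 3 than any other library of its group did, with a standard deviation of log2 differences of 0.323 in NA4 and 0.259 in WT4 against 0.466 to 0.591 in the other 6, and results are therefore also given without both. Hoxa10, part of which is in the fusion, was 298 to 371 in the NA libraries and 130 to 149 in the WT libraries. Kit, Flt3 and Ly6a, which encode 3 surface proteins used for sorting, were above 1000 in every library, with Ly6a lower in NA (log2 difference -0.28, adjusted p 0.0257 by limma). Slamf1, which encodes CD150, was at most 47.9, and Cd48 was 12.2 to 22.4 in NA and 34.2 to 83.8 in WT libraries (-1.58, adjusted p 0.00711 by limma). Xist was 869 to 1285 in WT and 0.94 to 2.80 in NA libraries. The Y-linked Eif2s3y was 516 to 666 in NA and at most 0.888 in WT libraries, so sex and genotype cannot be told apart. Of the marker genes of other blood cells, 7 of 8 erythroid markers had a lower mean in NA, with summed values of 35.4 to 64.9 against 147 to 296 in WT. Most of this sum was Hbb-bt (28.3 to 56.4 against 131 to 185), and only 1 of the 8 had enough counts to be tested. All 7 of 7 monocyte and macrophage markers had a lower mean in NA, with sums of 18.5 to 70.9 against 95.9 to 108. Of these, 2 had enough counts to be tested and 0 passed the threshold. Means of the untested markers were low. For granulocyte markers the sums were 1390 to 1709 in NA and 1750 to 2629 in WT, mostly Prtn3, with Elane at 0 throughout. Sums for megakaryocyte and B cell markers overlapped. T and NK cell markers summed to 148 to 171 in NA and 134 to 153 in WT, with Cd3e, Cd3d and Cd8a at 0, and mast cell and basophil markers to 1068 to 1257 and 813 to 1014, almost all of it Gata2, with Mcpt8, Prss34 and Fcer1a at 0. The part of sex and of these cells in the results below was not tested.

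The 3 catalytic genes are separate loci. On GRCm38, by the GENCODE M21 annotation, Ppp1cb (ENSMUSG00000014956) is at chr5:32458843-32517433 on the plus strand, Ppp1cc (ENSMUSG00000004455) at chr5:122158278-122175273 on the plus strand, and Ppp1ca (ENSMUSG00000040385) at chr19:4192065-4195420 on the plus strand. The coding sequence of Ppp1cb is 981 bases long. It is 75% identical at the aligned bases to that of Ppp1cc and 74.9% to that of Ppp1ca, and the longest identical runs are 23 and 20 bases. No stretch of 50 bases is shared among the annotated transcripts of the 3 genes. A read of that length from one of them therefore has no exact match in another.

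Promoters are shown for the beta and gamma subunit genes, which lie on the same chromosome and of which only the first stood apart between the groups, and for Ppp1r15a, the member with the widest spread between libraries. The sequences are RefSeq's for GRCm38.p6, from 250 bases before to 50 bases after the annotated start, and 8 of the 10 members have an entry. Capitals mark matches, on either strand, to TATAAA (the core promoter box of that name), GGGCGG (the GC box) or TGACGTCA (a cyclic AMP response element); the pentamer CCAAT, the MEIS-type motif TGACAG and the HOX-PBX type motif TGATTNAT were searched too and had no match in these 3. Overlapping matches were counted separately.
Ppp1cb, chr5:32458720-32459019, plus strand: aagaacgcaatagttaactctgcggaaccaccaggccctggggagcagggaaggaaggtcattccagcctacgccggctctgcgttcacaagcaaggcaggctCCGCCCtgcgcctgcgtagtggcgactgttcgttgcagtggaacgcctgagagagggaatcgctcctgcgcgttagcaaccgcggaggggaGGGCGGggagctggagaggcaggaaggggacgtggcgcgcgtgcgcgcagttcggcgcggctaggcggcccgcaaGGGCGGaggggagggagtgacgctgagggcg
Ppp1cc, chr5:122158025-122158324, plus strand: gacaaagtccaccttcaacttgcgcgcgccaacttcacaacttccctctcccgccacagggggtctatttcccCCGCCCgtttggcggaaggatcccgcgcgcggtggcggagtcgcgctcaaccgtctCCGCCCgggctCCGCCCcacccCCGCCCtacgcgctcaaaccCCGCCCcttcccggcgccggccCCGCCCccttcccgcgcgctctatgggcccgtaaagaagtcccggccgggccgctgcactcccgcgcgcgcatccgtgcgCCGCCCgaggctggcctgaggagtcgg
Ppp1r15a, chr7:45526219-45526518, minus strand: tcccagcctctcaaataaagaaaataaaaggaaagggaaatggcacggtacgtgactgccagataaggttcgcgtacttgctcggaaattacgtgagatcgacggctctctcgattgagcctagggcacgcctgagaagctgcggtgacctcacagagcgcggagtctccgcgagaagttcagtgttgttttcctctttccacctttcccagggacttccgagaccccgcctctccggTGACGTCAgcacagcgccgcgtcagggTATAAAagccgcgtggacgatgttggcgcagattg

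The Ppp1cb window holds 3 GC boxes and no TATA box, and the Ppp1cc window holds 7 GC boxes and no TATA box. The Ppp1r15a window holds 1 match to TATAAA, 1 to the cyclic AMP response element and no GC box. The TATAAA match begins 15 bases after the annotated start, and the TGACGTCA match begins 12 bases before it. Over all 32851 promoter windows of this length, GGGCGG was present in 35.7%, TATAAA in 13.6%, CCAAT in 37.4%, TGACAG in 19.2%, TGATTNAT in 3.22% and TGACGTCA in 1.79%. These are matches of letters only, and no binding was measured in these libraries.

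Among the catalytic subunits, the beta subunit transcript stood apart. Ppp1cb was 2276, 2327, 2397 and 2394 normalised counts in NA1 to NA4, and 749, 951, 910 and 840 in WT1 to WT4. Every NA library was more than double every WT library, and the groups did not overlap. The means were 2348 ± 58.2 (SD, n = 4) and 863 ± 88.4 (SD, n = 4), a 2.72-fold difference. On the log2(normalised count + 1) scale the difference was 1.45 (SE 0.086, 95% interval 1.27 to 1.63). By this value Ppp1cb ranked 232 of 11451 genes tested.

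Ppp1ca, the alpha subunit gene, was 1109, 1062, 1234 and 1004 in NA1 to NA4 and 1210, 1266, 1232 and 1202 in WT1 to WT4. Its groups overlapped through NA3, and the log2 difference was -0.16 (SE 0.084, 95% interval -0.34 to 0.02). Ppp1cc, the gamma subunit gene, was 1596, 1545, 1503 and 1652 in NA1 to NA4 and 1387, 1522, 1587 and 1498 in WT1 to WT4. These groups overlapped as well, with a log2 difference of 0.07 (SE 0.076, 95% interval -0.09 to 0.24). Of the 3 catalytic genes, Ppp1cb alone had groups that did not overlap.

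**Figure D1:**
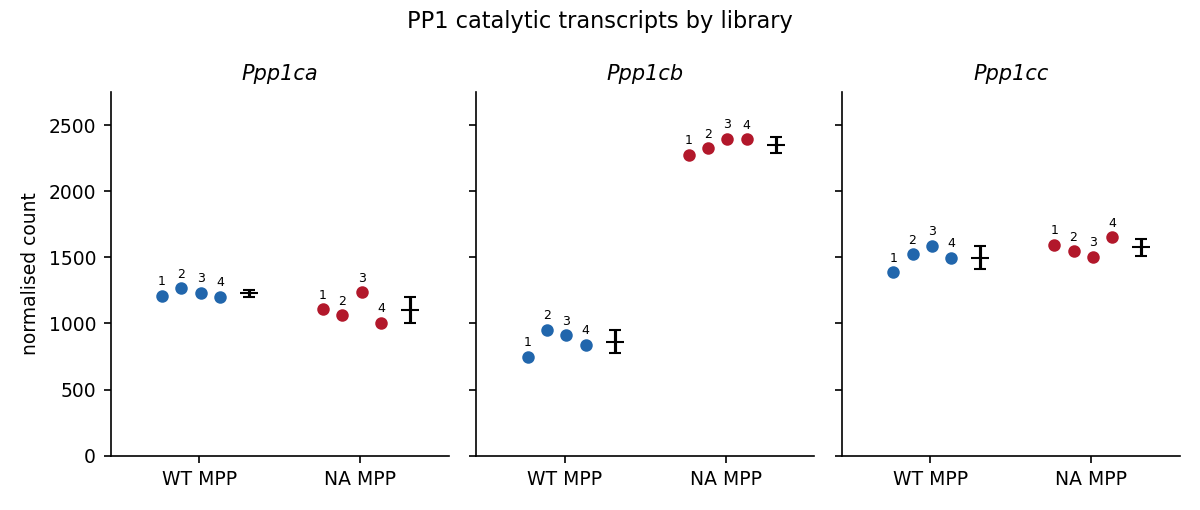
Normalised counts of Ppp1ca, Ppp1cb and Ppp1cc in each library (points, with library numbers), and group mean with SD (black, n = 4). Ppp1cb lies between 2276 and 2397 in the NA libraries and between 749 and 951 in the WT libraries, while the groups overlap for Ppp1ca and Ppp1cc.

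The summed catalytic count was 5025 ± 87.2 in NA and 3588 ± 186 in WT libraries (SD, n = 4), 1.4-fold apart. The ratio of Ppp1cb to Ppp1ca within a library was 2.05, 2.19, 1.94 and 2.39 in NA1 to NA4 and 0.619, 0.751, 0.738 and 0.699 in WT1 to WT4. Relative to Ppp1cc it was 1.49 ± 0.0752 in NA and 0.575 ± 0.0361 in WT (SD, n = 4). In normalised counts, then, Ppp1cb was the lowest of the 3 catalytic transcripts in each WT library and the highest in each NA library. These within-library ratios do not depend on how libraries were scaled to each other.

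Counts favour long transcripts, and Ppp1cb is the longest of the 3, with 10913 bases in the union of its exons against 3424 for Ppp1cc and 2520 for Ppp1ca. Per kilobase of that union, Ppp1cb made up 18.7, 19.6, 19.1 and 19.9% of the 3 catalytic transcripts in NA1 to NA4, and 7.20, 8.43, 8.05 and 7.76% in WT1 to WT4. The share of Ppp1cb was thus lowest of the 3 in every library of both groups, and the mean was 19.3% ± 0.544 in NA and 7.86% ± 0.519 in WT (SD, n = 4), a difference of 11.5 percentage points. Ppp1ca made up 39.3% ± 2.65 in NA and 48.6% ± 1.32 in WT, and Ppp1cc 41.4% in NA and 43.6% in WT. With the length of the transcript that has the longest coding sequence, the Ppp1cb share was 17.6% ± 0.436 and 7.16% ± 0.463. The effective lengths used by the authors' quantification are not given in the sources used here, so levels between genes are approximate.

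**Figure D2:**
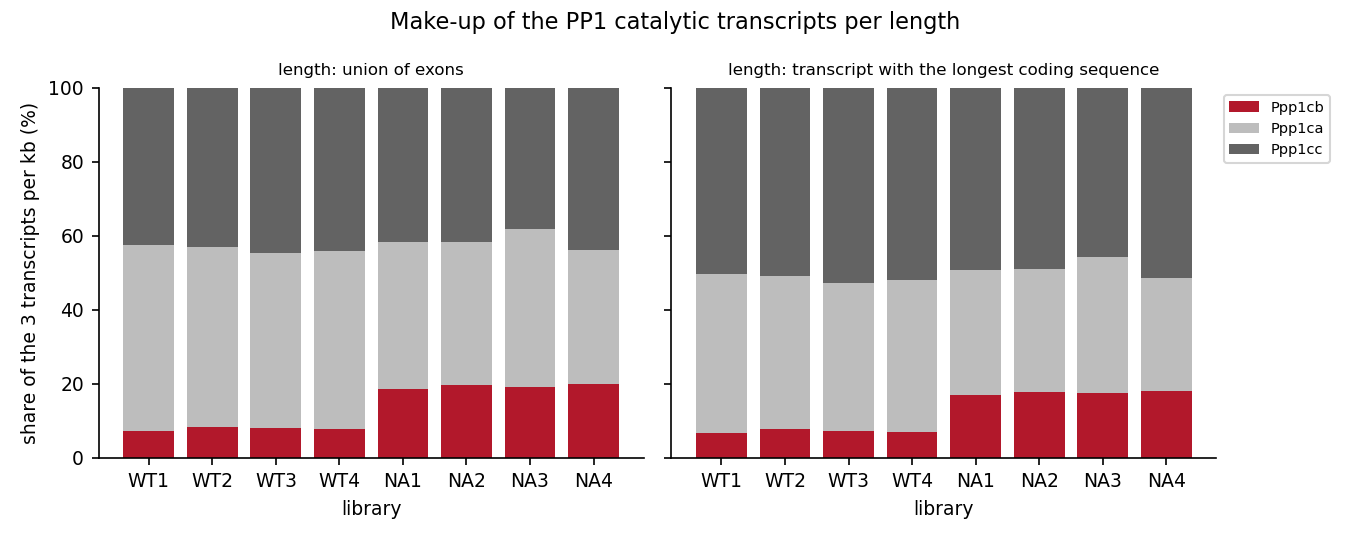
Share (%) of Ppp1cb, Ppp1ca and Ppp1cc in their summed level per kilobase in each library, by the union of exons (left) and by the transcript with the longest coding sequence (right). The Ppp1cb share is 18.7 to 19.9% in NA and 7.20 to 8.43% in WT libraries on the left.

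Levels per kilobase of exon union set the 10 members in order. In WT libraries Ppp1ca (487 ± 11.4) and Ppp1cc (438 ± 24.4) led, followed by Ppp1r15a (273 ± 133), Ppp1r2 (129 ± 14.8), Ppp1cb (79.0 ± 8.10) and Ppp1r8 (62.2 ± 8.61). Ppp1r15b (46.1 ± 5.03), Ppp1r10 (37.9 ± 9.45), Ppp1r12a (17.0 ± 3.62) and Ppp1r7 (13.2 ± 4.01) came last (normalised counts per kilobase, SD, n = 4). The wide range of Ppp1r15a overlapped with those of both Ppp1cc and Ppp1r2 in these libraries, as did those of Ppp1cb with Ppp1r8, Ppp1r15b with Ppp1r10, and Ppp1r12a with Ppp1r7; other neighbours in the order did not overlap. In NA libraries Ppp1cc (460 ± 18.8) and Ppp1ca (437 ± 38.9) overlapped at the top. Ppp1r15a (224 ± 46.2) and Ppp1cb (215 ± 5.34) overlapped next, and Ppp1cb lay above every value of Ppp1r2 (142 ± 12.4). Below them, Ppp1r15b (67.7 ± 10.6) overlapped with Ppp1r8 (52.5 ± 6.99), which overlapped with Ppp1r10 (31.3 ± 11.3), and Ppp1r10 with Ppp1r12a (22.5 ± 3.38), while Ppp1r7 (15.7 ± 1.95) was lowest. By this length Ppp1cb was below Ppp1r2 in WT and above it in NA libraries. By the transcript with the longest coding sequence, Ppp1cb (145 ± 14.8) and Ppp1r2 (141 ± 16.1) overlapped in WT, and in NA Ppp1cb (394 ± 9.77) lay above Ppp1r2 (155 ± 13.5) and every value of Ppp1r15a (234 ± 48.3). By both lengths Ppp1cb stayed below both other catalytic transcripts in either group.

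Regulatory subunits were read next by the place they take PP1 to. Ppp1r12a, at chr10:108162193-108284475, encodes MYPT1, which joins the beta subunit to myosin. It was 147, 198, 170 and 206 in NA1 to NA4 and 103, 140, 173 and 130 in WT1 to WT4. WT3 lay inside the NA range, and the log2 difference was 0.41 (SE 0.18, 95% interval 0.02 to 0.79). The highest NA value and the lowest WT value were NA4 and WT1.

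Ppp1r15a (chr7:45522916-45526268, minus strand) and Ppp1r15b (chr1:133131143-133139783) encode GADD34 and CReP, the stress-induced and the constitutive subunit that take PP1 to the eIF2 alpha subunit. Ppp1r15b was 304, 358, 428 and 424 in NA1 to NA4 and 257, 279, 219 and 278 in WT1 to WT4. The groups did not overlap, with means of 379 ± 59.1 and 258 ± 28.1 (SD, n = 4) and a log2 difference of 0.54 (SE 0.14, 95% interval 0.25 to 0.84). Ppp1r15a was 673, 567, 844 and 548 in NA1 to NA4 and 376, 1309, 849 and 672 in WT1 to WT4. All NA values lay within the WT range, where the highest library was WT2 and the lowest WT1. The log2 difference was -0.17 (SE 0.27, 95% interval -0.75 to 0.41), and it was 0.11 without WT2 and -0.48 without WT1, so 1 WT library set its sign. The ratio of Ppp1r15a to Ppp1r15b was 1.76 ± 0.407 in NA and 3.12 ± 1.45 in WT libraries (SD, n = 4), and WT1, at 1.46, lay within the NA range of 1.29 to 2.21.

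Of the nuclear regulators, Ppp1r10 (chr17:35916434-35932283) encodes PNUTS, which holds PP1 at chromatin and transcription complexes. It was 143, 155, 271 and 135 in NA1 to NA4 and 185, 183, 293 and 192 in WT1 to WT4. The third library was the highest in each group, NA3 lay inside the WT range, and the log2 difference was -0.31 (SE 0.22, 95% interval -0.78 to 0.16), or -0.53 without NA3. Ppp1r8 (chr4:132826929-132843169, minus strand) encodes NIPP1, a nuclear inhibitor and targeting subunit. It was 182, 153, 135 and 144 in NA1 to NA4 and 172, 187, 214 and 154 in WT1 to WT4, overlapping, with a log2 difference of -0.24 (SE 0.15, 95% interval -0.57 to 0.09).

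Both remaining members act on PP1 more generally. Ppp1r7 (chr1:93342854-93373489) encodes SDS22, which binds newly made catalytic subunits. It was 188, 145, 151 and 177 in NA1 to NA4 and 178, 123, 86.5 and 168 in WT1 to WT4, overlapping, and the log2 difference of 0.30 (SE 0.21) fell to 0.09 without WT3. Ppp1r2 (chr16:31251537-31275277, minus strand) encodes inhibitor-2. It was 619, 652, 564 and 694 in NA1 to NA4 and 504, 602, 652 and 540 in WT1 to WT4, overlapping, with a log2 difference of 0.14 (SE 0.11).

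**Figure D3:**
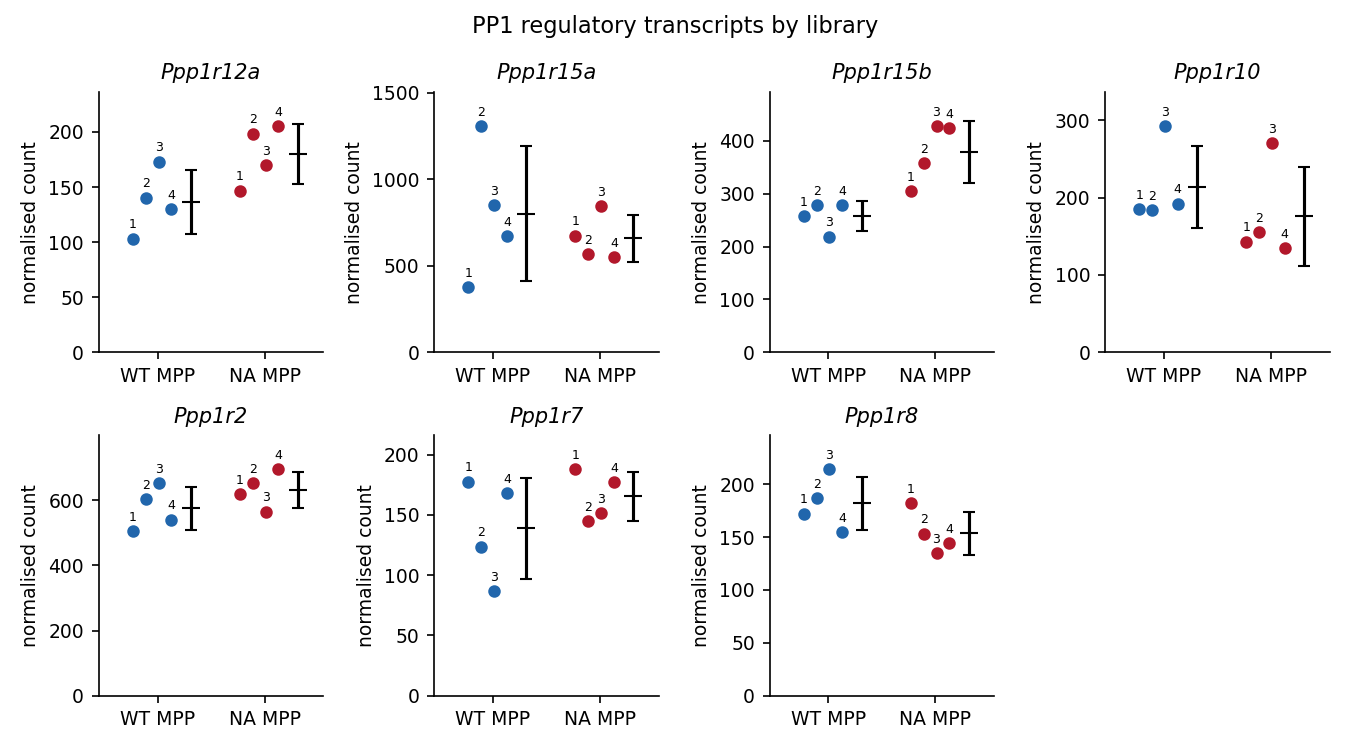
Normalised counts of the 7 regulatory members in each library (points, with library numbers), and group mean with SD (black, n = 4); each panel has its own axis from 0. The groups are apart for Ppp1r15b (304 to 428 against 219 to 279) and overlap for the other 6, with the widest spread for Ppp1r15a in WT (376 to 1309).

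In the fit across all genes 2 of the 10 members, Ppp1cb and Ppp1r15b, were past the adjusted p threshold of 0.05 by limma, both higher in NA, and 0 were lower. At an unadjusted p under 0.05, Ppp1r12a was higher as well and 0 members were lower. The background was 17.9% of the 11451 genes tested in either direction, 10.1% higher and 7.87% lower. The groups did not overlap for the same 2 members, against a background of 22% of genes tested (11.5% with NA above and 10.5% with NA below). Because the members were chosen with this contrast known, nothing is read from these counts. The median log2 difference was 0.11 over the members and -0.01 over all genes tested. The log2 differences without the fourth library of both groups were 1.43 for Ppp1cb and 0.52 for Ppp1r15b. In that fit, where 4.52% of all genes were called, Ppp1cb was past the threshold and Ppp1r15b was not. Without NA4 alone, Ppp1r15b was short of the threshold as well (adjusted p 0.0617 by limma).

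**Figure D4:**
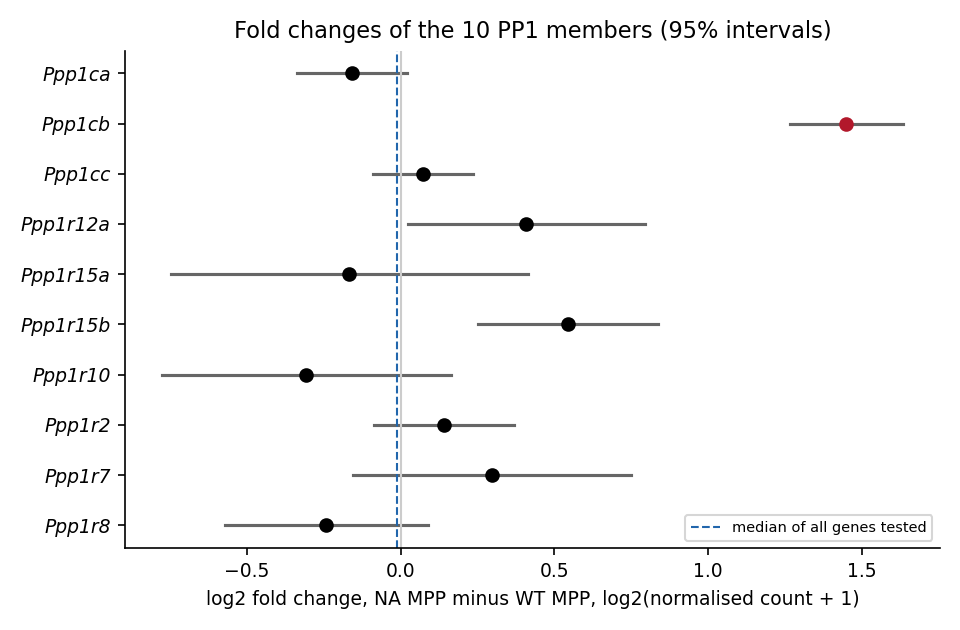
Log2 difference, NA minus WT, of the 10 members on the log2(normalised count + 1) scale, with 95% intervals; the dashed line is the median of all genes tested (-0.01). Ppp1cb is at 1.45, Ppp1r15b at 0.54, and the other 8 lie between -0.31 and 0.41.

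Some members share sequence with other annotated genes, which limits how surely their reads were assigned. Of the 50-base words in the annotated transcripts, 40% of those of Ppp1cc and 9.11% of those of Ppp1r2 occur in other genes, mainly retrogenes and pseudogenes, so the counts of these 2 genes are uncertain. Of the 10 copies of these 2 genes, 4 had a row in the table, with values of at most 5.69. For Ppp1cb, 16.4% of the words occur in 1 other model, Gm43312, which had no row in the table. How reads of these words were assigned was not examined, so the count of Ppp1cb is uncertain in that part too. The share was 1.5% for Ppp1r10 and 1.43% for Ppp1r7, and 0 for the other 5 members.

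The pattern of Ppp1cb over the 8 libraries was most like that of Stk25 (Pearson r 0.997), Ube2q2 (0.997), Irf2bp2 (0.995), Zbtb14 (0.994) and Ifngr1 (0.994), out of 8999 genes with a mean of at least 50. These correlations mostly restate the gap between the 2 groups, and 175 genes were above 0.95. After each group's mean was subtracted, the most alike were Nfia (0.982), Klf11 (0.979), Metrnl (0.974), Nhlrc3 (0.973) and Nfkbiz (0.973). Among the other members, r after this step was 0.91 for Ppp1r15a, 0.74 for Ppp1r12a, 0.68 for Ppp1cc and 0.67 for Ppp1r2, and it was -0.70 for Ppp1r7 and between 0.14 and 0.29 for the other 4. Within the WT group, Ppp1cb and Ppp1r15a placed the libraries in the same order, WT1 lowest, then WT4, WT3 and WT2. WT1 and WT4 were of higher depth, and WT3 and WT2 of lower depth. In the NA group these genes placed the libraries in different orders, with NA1 lowest for Ppp1cb and NA4 lowest for Ppp1r15a. All libraries were scaled together, so these points share their scaling, and the values are a description.

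Around Ppp1cb, 5 other genes tested lay within 500 kb, a set looked at after its values were seen. Pisd, a gene of mitochondrial phospholipid synthesis, was lower in NA (log2 difference -0.49, adjusted p 0.00138 by limma). Yes1 (0.20), Prr14l (-0.04) and Depdc5 (-0.14) did not pass the threshold. Fosl2, a gene of the AP-1 family, had a log2 difference of 1.81 but ranged from 189 to 1294 in NA and from 47.1 to 944 in WT libraries (adjusted p 0.101 by limma). None of the 5 was therefore called higher beside Ppp1cb.

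A wider list of 48 other PP1 regulatory genes was read in the same fit; 29 had enough counts to be tested and 10 were at 0 in every library. Of the 29, 3 were higher in NA, 1 was lower and 25 did not pass the threshold, with a median log2 difference of 0.07 beside -0.01 for all genes tested. The background is the 17.9% given above. Phactr1, which links PP1 to actin, was 42.5 to 71.1 in NA and 14.8 to 26.6 in WT (log2 difference 1.33, SE 0.31, adjusted p 0.00885 by limma). Csrnp1, a nuclear protein that binds PP1, was 871 to 1285 in NA and 404 to 1007 in WT, overlapping (0.78, adjusted p 0.0184 by limma), a call lost in 4 of 20 alternatives. Ppp1r3d, a glycogen-targeting subunit, was 57.9 to 75.2 in NA and 30.6 to 43.3 in WT (0.75, adjusted p 0.0374 by limma), a call lost in 9 of 20 alternatives. Ppp1r18, also known as phostensin, an actin-associated subunit, was lower, at 172 to 232 in NA and 309 to 336 in WT (-0.68, adjusted p 0.00244 by limma). Without the fourth library of both groups none of these 4 passed by limma, with 0 genes of the list called in either direction and, at an unadjusted p under 0.05, 4 higher and 2 lower; in that fit 4.52% of all genes were called. Over the alternatives the log2 differences were 1.17 to 1.45 for Phactr1, 0.57 to 1.01 for Csrnp1, 0.65 to 0.81 for Ppp1r3d and -0.75 to -0.56 for Ppp1r18.

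No relative of MYPT1 on that list passed the threshold. Ppp1r12b, another myosin-targeting subunit, was 15.9 to 50.8 in NA and 57.7 to 77.4 in WT (log2 difference -0.95, adjusted p 0.0594 by limma). Ppp1r12c (-0.02) and Ppp1r16b (-0.06) were near 0, and Ppp1r16a was at -0.41. Among inhibitors, Ppp1r11 was at 0.02 and Ppp1r14b at -0.26.

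The other catalytic subunits of the same phosphatase family were compared with Ppp1cb. Of 10 listed, 8 were tested, and 2 were higher in NA, where 10.1% of all genes tested were. Ppp4c, the catalytic subunit of phosphatase 4, was 610, 575, 688 and 674 in NA1 to NA4 and 79.9, 169, 101 and 92.3 in WT1 to WT4. The groups did not overlap, with a log2 difference of 2.57 (SE 0.19, adjusted p 8.55e-07 by limma), and the call held in all 20 alternatives, at 2.44 to 2.79. Ppp6c was higher by 0.35 (adjusted p 0.0399 by limma), a call lost in 12 of 20 alternatives. Ppp2ca (-0.02), Ppp2cb (-0.30), Ppp3ca (0.24), Ppp3cb (0.03), Ppp3cc (0.47) and Ppp5c (-0.44) did not pass. Of the phosphatase 4 regulatory genes, examined after their values were seen, Ppp4r3a was higher (0.76, adjusted p 0.0104 by limma), and Ppp4r1, Ppp4r2, Ppp4r3b and Ppp4r4 did not pass.

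Genes that act with the beta subunit in myosin phosphatase were listed apart from the members. Of 12, 10 were tested, 5 were higher in NA, 2 were lower and 3 did not pass, with a median log2 difference of 0.41; over all genes tested 10.1% were higher and 7.87% lower. The kinases Rock1 (0.62, adjusted p 0.00373 by limma) and Rock2 (0.46, adjusted p 0.0141), which phosphorylate MYPT1 and restrain the phosphatase, were higher. Of 20 alternatives, the Rock1 call was lost in 0 and the Rock2 call in 4. Rhoa, which activates these kinases, was higher too (0.40, adjusted p 0.0472), a call lost in 15 of 20 alternatives. Prkg1 stayed low, at 10.3 to 21.2 in NA and 1.14 to 4.53 in WT (adjusted p 0.0266 by limma), a call lost in 7 of 19 alternatives. It passed the filter on low values through the NA libraries alone, so it could only have come out higher in NA. Prkg1 is counted among the 5 higher genes, but nothing is read from its call. Genes of myosin light chains moved both ways: Myl12b was higher (0.66, adjusted p 0.00972), while Myl12a (-0.56, adjusted p 6.31e-04) and Myl6 (-0.43, adjusted p 0.00701) were lower, all by limma. Of 20 alternatives, the Myl12b call was lost in 3, the Myl6 call in 1 and the Myl12a call in 0. Mylk, Myh9 and Myh10 did not pass.

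For the complex of the beta subunit with SHOC2 and MRAS, 8 of 8 listed genes were tested and 1 passed, beside 17.9% of all genes tested: Araf, a RAF kinase, was lower in NA (log2 difference -0.43, adjusted p 0.0135 by limma). This call was lost in 2 of 20 alternatives. Shoc2 itself was 32.9 to 81.2 in NA and 66.8 to 88.8 in WT (-0.45, adjusted p 0.252 by limma). Mras (0.41), Nras (0.22), Hras (-0.20) and Braf (-0.21) were among the 7 that did not pass. The list's median was -0.20.

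Around Ppp1r15a and Ppp1r15b, 15 of 16 genes of eIF2 alpha phosphorylation were tested, and 1 passed, beside 17.9% of all genes tested. Eif2b2, a subunit of the exchange factor that eIF2 needs, was lower in NA (log2 difference -0.40, adjusted p 0.0457 by limma), a call lost in 12 of 20 alternatives. Eif2s1, the substrate, was at 0.26 (adjusted p 0.0933 by limma), and the response genes Atf4 and Ddit3 at 0.43 (adjusted p 0.0526) and 0.74 (adjusted p 0.0694), also short of the threshold. Atf4, Ddit3 and Csrnp1 placed the WT libraries in the order given above for Ppp1cb and Ppp1r15a, which was noticed after the values were seen. How many of all genes share that order was not counted. The eIF2 alpha kinase genes Eif2ak1, Eif2ak2, Eif2ak3 and Eif2ak4 lay between -0.30 and 0.36 and did not pass. The list's median was -0.02. Of the PNUTS partners, Tox4 was at 0.49 (adjusted p 0.123 by limma) and Wdr82 at 0.09.

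**Figure D5:**
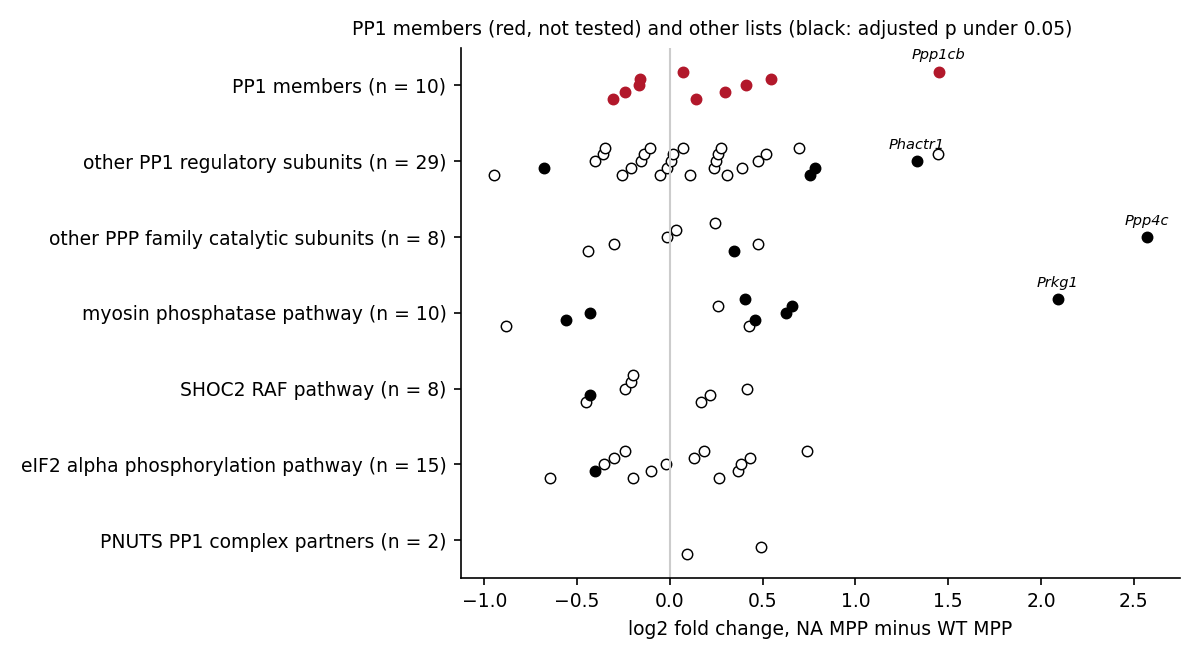
Log2 difference, NA minus WT, of each tested gene by list; members are red, and genes of the other lists are black where the adjusted p by limma was under 0.05 and white otherwise. Ppp1cb (1.45), Ppp4c (2.57), Phactr1 (1.33) and Prkg1 (2.09) lie farthest to the right among the named points. Prkg1 passed the filter on low values through the NA libraries alone.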

How the data were processed

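Aliquots of 1000 sorted MPPs were turned into amplified cDNA from polyA RNA, made into tagmentation libraries and sequenced. Per the labels, the authors used bcl2fastq, RSEM, DESeq2 and mm10 (the same assembly as GRCm38), with no versions; annotation and strand use were not given in the sources used here. The deposited signal is RSEM expected counts that were divided by 1 factor per library, although the table is named as raw counts. Each library had 1 step of which 98.3% to 98.9% of its low values above 0.5 were an integer multiple (tolerance 0.02). Higher values, among them those of every member, were not part of this check. Dividing by the step gave the estimated reads. Groups came from the sample titles, and 0 columns were left unmapped. Gene symbols and lengths came from GENCODE M21, which named 86.7% of the 37980 rows.

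Values were compared as log2(normalised count + 1) with limma 3.58.1 in R 4.3.3, with a mean-variance trend and no covariate. Genes with at least 10 in at least 4 of 8 libraries were tested (in fits without a library, at least 10 in as many libraries as the smaller group holds), and p-values were adjusted by Benjamini-Hochberg over all of them, with a threshold of 0.05. The added 1 understates changes of low genes. The fit was tested on simulated data. Reads of amplified cDNA without molecular identifiers are not independent molecules. Count tests on recovered reads were planned and not run, since fractional assignments kept whole reads from being recovered. Other scalings, pseudocounts (0.5 and 5), filters, a depth term, a replicate block, removal of a GC trend and leaving out libraries were tried. Same-numbered libraries of the 2 groups deviated with r of 0.0131 to 0.158, so the numbers were not taken as pairs.

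The members and lists were chosen with earlier results of these data known. The text names all members, every tested gene past the threshold in the lists of PP1 and its pathways, partners and isoforms whose role is described, and the 5 genes most like Ppp1cb. Neighbouring genes and phosphatase 4 regulatory genes were added after values were seen, and 1 listed symbol was corrected to its mouse form (Trp53bp2). For likeness (Pearson r), genes averaging under 50 were left out. Values of some listed genes are not reported here. Coding sequences were aligned with Biopython 1.88.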

Additional observations from a re-analysis of the deposited data

Results flagged for a closer look

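Of 58 groups of 4 values examined, 5 held 1 value far from the other 3 by Dixon's criterion; chance gives about 1 in 20. For Ppp1r10 the third library stood above the rest in both groups, at 270.5 in NA3 (others 134.6 to 155.1) and 292.6 in WT3 (others 183.5 to 191.8). The estimated depth of NA4 was 3889526 reads, against 4906458 to 4915060 in NA1 to NA3. Prkg1 was 21.24 in NA3 and 10.27 to 11.81 in the other NA libraries. Eif2b2 was 219.3 in WT4 and 257.3 to 261.9 in the other WT libraries. Explanations for these values were not tested.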

How the results depend on the processing

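The log2 difference of Ppp1cb, which was not tested, ranged over 20 alternatives from 1.28 with the GC trend across genes removed to 1.5 without WT2, and its share per length differed by 10.5 points with the other length. Without 1 library these were 1.38 to 1.5 and 11.3 to 11.7 points. Among all genes tested 2053 were called (1152 higher, 901 lower), against 595 lower with no variance trend, 519 (375 higher, 144 lower) without NA4 and WT4, and, without 1 library, 1130 to 2188 (674 to 1196 higher, 456 to 1008 lower), lowest without NA4 (1130) and WT4 (1271). Of all calls 56.1% were higher, 47.8% under upper quartile scaling, 41.3% under total count scaling, where the median of all genes was -0.08, and 72.3% without NA4 and WT4.

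Of the other PP1 regulatory genes (3 higher, 1 lower), 2 were lower under upper quartile scaling, 3 under total count scaling, and 0 higher and 0 lower without NA4 and WT4; without 1 library 1 to 4 were higher and 1 to 2 lower, with 1 higher and 2 lower without NA2. Of the other lists together (7 higher, 4 lower), 7 were lower under total count scaling, 4 higher with no low-value filter, 3 higher with no variance trend, 2 lower with the GC trend removed, and 2 higher and 1 lower without NA4 and WT4; without 1 library 3 to 8 were higher (3 without NA4, 4 without NA2, WT1 or WT4) and 3 to 5 lower. With the replicate block, 2004 genes were called, Ppp1cb was at 1.45, and 2 PP1 regulatory genes were higher and 2 lower; 4 of 8 libraries correlated best with their own number. The causes were not tested. Ppp1r15a turned sign without WT2 (0.11) and Ppp1r2 with the GC trend removed (-0.02), neither called. With 4 libraries a group, differences within the intervals above could not be resolved.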
